A study of Mus musculus with 6 samples.

Results

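The early response genes described here are Egr1, Egr2, Egr3 and Egr4, Nr4a1, Nr4a2 and Nr4a3, Arc, Npas4 and Ier2. They were taken by gene symbol, 10 of the 35485 genes in the deposited tables, and were chosen with earlier results of these data known. RNA-seq had been performed on whole retinas of wild type C57BL/6 mice, male and 12 weeks of age, 2 days after optic nerve crush (ONC) or a sham operation. The injury was a 10 second pinch by forceps, 2 mm from the eyeball, and sham mice had the surgery without the pinch. Crushing damages the nerve fibers of retinal ganglion cells (RGCs), the output neurons of the retina. Each group had 3 samples, and each sample was an equal mix of RNA from 6 retinas of 6 mice. The spread between samples is therefore a spread between pools.

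EGR proteins are zinc finger transcription factors that bind GC-rich sites, and NR4A proteins are orphan nuclear receptors whose activity depends mainly on how much of them is made. Genes of both families are immediate early genes, which are transcribed within minutes of a stimulus, without new protein synthesis, by factors already in the cell such as SRF with its ELK partners, CREB and MEF2. In neurons, Arc, a protein of the postsynaptic site that acts on glutamate receptor trafficking, and Npas4, a transcription factor of the bHLH-PAS class that responds to calcium entry, are classical markers of synaptic activity. Ier2 is a small nuclear protein of the growth factor response. In the retina, Egr1 is known for its response to light and to the visual signals that guide eye growth. Transcripts of this class are short-lived, and a sample taken at 2 days holds their level at that time and not the first response to the injury.

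The promoters are shown with matches to the known sites of CREB, SRF, EGR and NR4A proteins. Whether these sites act in the retina was not tested. RefSeq promoter sequence (build GRCm38.p6) was at hand for 6 of the 10 genes, Egr2, Egr4, Nr4a1, Nr4a2, Nr4a3 and Npas4, with 10 promoters among them because Egr2 has 5 annotated starts, some of them so near that the same sites are counted again. The 250 bases before each start were searched on both strands for the core of the CREB site, TGACG, which is also contained in the full site TGACGTCA. The core was found in 8 of the 10 promoters, at least 1 for each of the 6 genes, against 17.8% of all 32851 promoters of the same length. The promoter of Nr4a1 (chr15:101266596-101266845, plus strand) held 4 cores and that of Npas4 (chr19:4989972-4990221, minus strand) held 2, all in capitals here.
Nr4a1: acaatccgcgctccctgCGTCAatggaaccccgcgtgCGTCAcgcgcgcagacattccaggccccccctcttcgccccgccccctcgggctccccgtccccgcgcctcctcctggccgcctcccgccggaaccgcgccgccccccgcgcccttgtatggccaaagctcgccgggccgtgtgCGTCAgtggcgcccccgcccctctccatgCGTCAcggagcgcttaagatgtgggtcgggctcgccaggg
Npas4: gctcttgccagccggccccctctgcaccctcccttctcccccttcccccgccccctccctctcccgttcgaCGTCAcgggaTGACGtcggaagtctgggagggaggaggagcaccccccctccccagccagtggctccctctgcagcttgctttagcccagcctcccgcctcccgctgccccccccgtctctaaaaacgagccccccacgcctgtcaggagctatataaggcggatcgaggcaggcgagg
Egr4: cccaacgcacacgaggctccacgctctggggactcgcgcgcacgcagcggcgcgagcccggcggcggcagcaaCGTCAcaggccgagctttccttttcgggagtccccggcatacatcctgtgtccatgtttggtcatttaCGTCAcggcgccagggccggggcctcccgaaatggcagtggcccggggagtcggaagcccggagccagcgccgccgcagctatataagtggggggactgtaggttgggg
The Egr4 promoter (chr6:85513590-85513839, minus strand) is set beside them because Egr4 and Npas4 each had 2 cores. The full CREB site was in none of the 10 promoters and in 1.55% of all.

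The CArG box, the site of SRF, was found in 4 of the 10 promoters, all of them at Egr2 and 3 of these the same box before neighboring starts, and in 1.47% of all promoters. The 30 bases of Egr2 that hold it (chr10:67537789-67537818, plus strand) also hold a CREB core, and both are in capitals.
Egr2: tcctcagtCCATATATGGgcagcgaCGTCA
The EGR site GCGGGGGCG was found in 1 of these promoters, that of Nr4a1, and in 2.57% of all, and the EGR site GCGTGGGCG and the NR4A site AAAGGTCA were found in none of them and in 0.536% and 1.34% of all. A match of letters is a description of the sequence and not a measured binding site. As described next, these promoters belonged to genes of very different level, and no gene with a promoter printed here passed the test between ONC and sham.

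Levels are given as RPKM, the exon reads of a gene scaled by its exon length and by all reads on genes in the sample, and so can be set side by side across genes. In the sham retina, Nr4a1 had the highest mean at 7.13 ± 1.25 (SD, n = 3) and Ier2 followed at 6.68 ± 0.799, with overlapping samples. Egr1 came next at 4.63 ± 0.815 and Nr4a2 at 2.03 ± 0.392, each apart from its neighbors in every sample. Npas4, Nr4a3, Arc, Egr4 and Egr3 lay between 0.770 and 0.268, and neighbors in order among these genes overlapped. Egr2 was close to 0.

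After ONC the order changed at the top. Egr1 led at 10.4 ± 0.693 (SD, n = 3), with its lowest sample above the highest of Ier2, which was at 8.57 ± 0.334 and overlapped with Nr4a1 at 7.80 ± 1.02. Nr4a2 was at 2.21 ± 0.350, Arc at 1.17 ± 0.291 and Npas4 at 1.15 ± 0.222, the last pair overlapping. Egr3, Egr4 and Nr4a3 were between 0.463 and 0.350 and overlapped. Among the 13670 genes tested, 38.6% had a lower mean RPKM than Egr1 in sham and 59.3% in ONC, so that Egr1 moved from below to above the middle of the expressed genes.

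**Figure D1:**
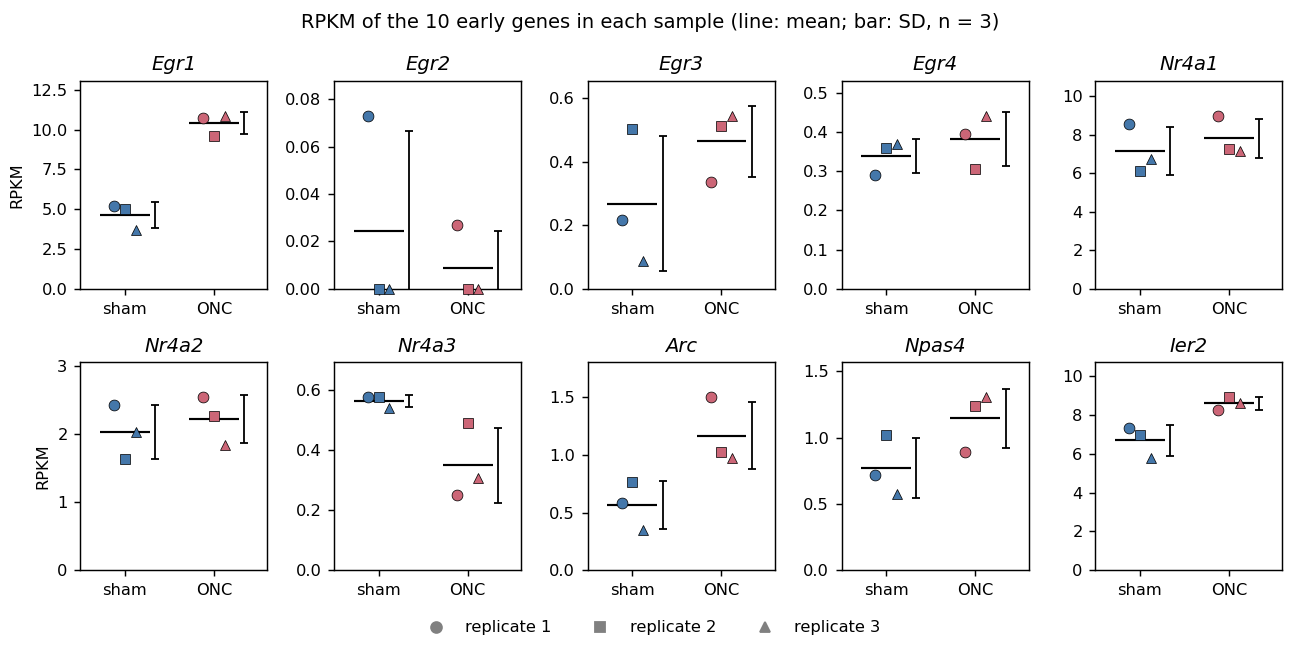
RPKM (y axis, one scale per gene) of the 10 early genes in each sham (blue) and ONC (red) sample. The symbol gives the replicate number, the horizontal line the mean and the bar the SD of 3 samples, clipped at 0 for Egr2. Egr1 is the gene whose groups stand widest apart, with sham samples from 3.70 to 5.20 and ONC samples from 9.61 to 10.9.

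The ONC and sham groups were tested for differences in exon reads with edgeR, and genes with a false discovery rate (FDR, the Benjamini-Hochberg adjusted p over all 13670 genes tested) under 0.1 and a fold change above 1.5 were called DEGs. Of the 9 early genes tested, which had a mean above 0.3 RPKM in sham or ONC, 1 was a DEG with higher expression in ONC, Egr1, against 0.827% of all tested genes. None was a DEG with lower expression, against 0.834% of all and 1.66% in both directions together, and this count stayed at 0 with DESeq2, with limma and at an unadjusted p under 0.05. At any fold change 1 early gene passed the FDR, Egr1, among 2.38% of all genes that passed with higher, 3.72% with lower and 6.09% with either sign. Every ONC sample was above every sham sample for 3 of the 9 genes, Egr1, Arc and Ier2, against 11% of all genes, and below for 1, Nr4a3, against 10.8%, which makes 4 of 9 without overlap against 21.8%. Egr3 had passed the filter only through its ONC mean, and Egr2 was not tested. The median log2 fold change of the 9 was 0.24, or 0.14 over the 8 genes that met the filter in both groups, and that of all genes was 0.01.

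**Figure D2:**
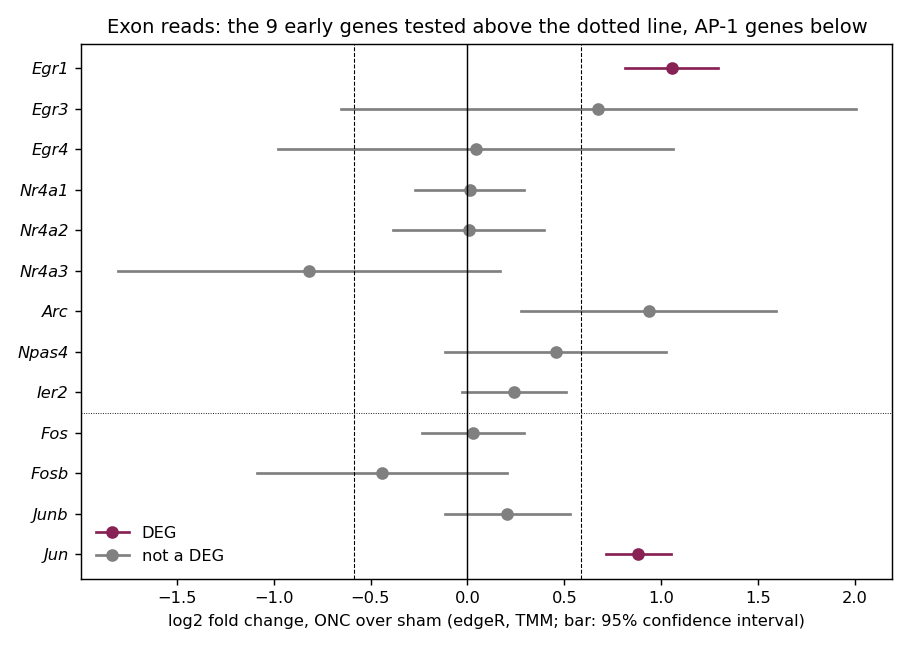
log2 fold change of ONC over sham (x axis) in exon reads for the 9 early genes tested and, below the dotted line, Fos, Fosb, Junb and Jun. Points are edgeR estimates, bars are 95% confidence intervals and dashed lines mark a fold change of 1.5 in either direction. Only Egr1 and Jun are DEGs, and the intervals of Nr4a1 and Nr4a2 are narrow around 0 while those of Egr3, Egr4 and Nr4a3 are wide.

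Egr1, the most studied member of its family, was higher after ONC. Its exon reads were 367, 368 and 278 in the sham samples, in the order of replicates 1, 2 and 3 used throughout, and 836, 735 and 866 in the ONC samples. The 3 sham samples were low and the 3 ONC samples high, without overlap. The difference was 2.08-fold (95% confidence interval 1.76 to 2.45; edgeR, FDR = 7.34e-06). An exact permutation test on the normalized counts gave a two-sided p = 0.1, the smallest that 3 samples against 3 allow. The median read coverage over its exons, a signal without normalization, was 22, 22 and 17 in sham and 51, 47 and 58 in ONC. Leaving out each sample in turn left the log2 fold change between 0.95 and 1.12, and Egr1 was a DEG in each of these fits.

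Egr1 has 2 exons, and reads across their junction were few. There were 7, 12 and 17 such reads in sham and 29, 27 and 47 in ONC, so that the direction was the same. With junction reads in place of exon reads the log2 fold change was 1.29 (standard error 0.50) and the FDR was 0.244, which did not pass. Egr1 lies at chr18:34861207-34864956 in the GRCm38 positions of the tables, and none of the 10 genes shares its span with another gene in the tables.

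The other EGR genes were rare transcripts in the retina. Egr2 (chr10:67537869-67542188), known for its role in myelinating glia, had 5, 0 and 0 exon reads in sham and 2, 0 and 0 in ONC. A count of 0 allows up to 3 reads, and no fold change is given. Egr3 (chr14:70077445-70080157), which like Egr1 is induced by neuronal activity, had 7, 17 and 3 reads in sham and 12, 18 and 20 in ONC. Its groups overlapped, and the log2 fold change of 0.68 had a 95% confidence interval from -0.65 to 2.00 (edgeR, FDR = 0.639). Without sham replicate 2, the highest of its group, this value was 1.47 (FDR = 0.413), and without sham replicate 3 it was 0.28. Egr4 (chr6:85511122-85513542) had 14, 18 and 19 reads in sham and 21, 16 and 24 in ONC, with a log2 fold change of 0.04 and an interval from -0.98 to 1.06 (edgeR, FDR = 0.974). Both intervals include the change of Egr1, which was not detectable for Egr3 or Egr4 at these depths.

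None of the NR4A receptors passed the test. Nr4a1 (chr15:101266846-101274795), also called Nur77, had 486, 364 and 408 exon reads in sham and 563, 447 and 461 in ONC. Its log2 fold change was 0.01 with an interval from -0.27 to 0.29 (edgeR, FDR = 0.975). This interval lies below the whole interval of Egr1, 0.81 to 1.29, and Nr4a1 had more reads than Egr1 in 2 of the 3 sham samples. Nr4a2 (chr2:57107226-57124003), known for its role in dopaminergic neurons, had 186, 131 and 166 reads in sham and 215, 188 and 160 in ONC. Its groups overlapped, and its log2 fold change was 0.01 with an interval from -0.38 to 0.39 (edgeR, FDR = 0.990). For both genes the sign of this value depended on which sample was left out.

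Nr4a3 (chr4:48051248-48083352) was the exception in direction on exon reads. It had 25, 26 and 25 exon reads in sham and 12, 23 and 15 in ONC, and its sham values agreed closely at 0.577, 0.576 and 0.542 RPKM. All 3 ONC samples were below all 3 sham samples once scaled, at 0.252, 0.491 and 0.307 RPKM. The log2 fold change was -0.82 with an interval from -1.80 to 0.17 (edgeR, FDR = 0.403), so that Nr4a3 did not pass the test. No alternative brought it past the FDR, and the lowest FDR among them was 0.280. Its junction reads were 9, 17 and 4 in sham and 6, 14 and 9 in ONC, which overlapped. On junction reads the log2 fold change was -0.24 (standard error 0.75). Its few intron reads went the other way, with 2, 0 and 2 in sham and 4, 3 and 4 in ONC.

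Introns gave a second readout for the 2 NR4A genes with enough reads, since intron reads come mostly from unspliced transcripts. Nr4a1 had 94, 41 and 27 intron reads in sham and 44, 59 and 65 in ONC, with sham replicate 1 above all others and the groups overlapping. Nr4a2 had 40, 69 and 28 in sham and 15, 21 and 42 in ONC, with ONC replicate 3 inside the range of sham. The log2 fold changes were 0.04 (standard error 0.42, FDR = 0.970) and -0.83 (standard error 0.46, FDR = 0.375; edgeR on intron reads). Neither passed, nor did either reach an unadjusted p under 0.05, while 2.56% of the 13520 genes tested on introns did pass FDR and fold change. The other 8 early genes had at most 8 intron reads in any sample and were not tested.

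Arc (chr15:74669083-74672570) was higher in every ONC sample but did not pass the FDR. It had 41, 56 and 26 exon reads in sham and 116, 78 and 77 in ONC, or 0.583, 0.765 and 0.347 RPKM against 1.499, 1.03 and 0.971. The highest sample, ONC replicate 1, stood apart from the rest of its group. The fold change was 1.91 with an interval from 1.21 to 3.02 (edgeR, FDR = 0.114). Across the 19 alternatives Arc had an FDR from 0.0406 to 0.604 and passed in 5, of which 4 also met the fold change threshold. Without ONC replicate 1 its log2 fold change was 0.69 and without sham replicate 3 it was 0.71 (FDR = 0.228 and 0.368). The lowest FDR was that without a filter on RPKM. Among the alternatives in which Arc passed were limma on log2 RPKM and division by all reads on genes. In these the median of all genes itself lay at 0.11 to 0.13. Its junction reads were 6, 2 and 1 in sham and 23, 2 and 4 in ONC, which overlapped. On junction reads the log2 fold change was 1.45 (standard error 1.01).

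**Figure D3:**
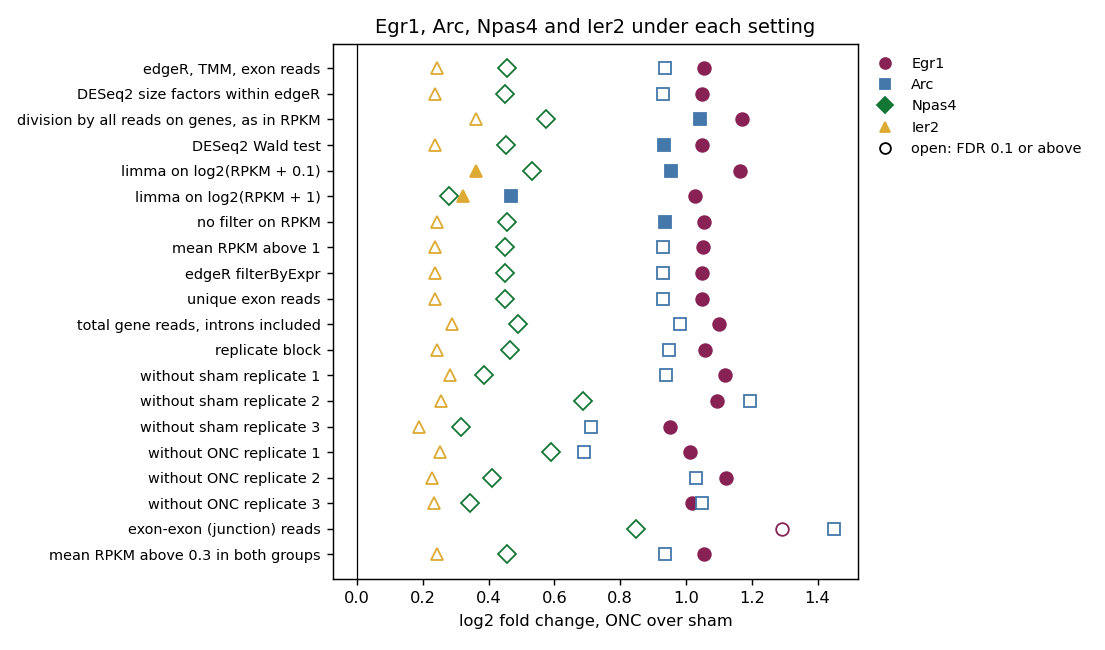
log2 fold change of ONC over sham (x axis) of Egr1, Arc, Npas4 and Ier2 under the main procedure (top line) and the 19 alternatives. Filled symbols have an FDR under 0.1 and open symbols do not. Egr1 stays between 0.95 and 1.29 and is open only for junction reads, while Arc is filled in 5 alternatives.

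Npas4 (chr19:4984355-4989971) had 54, 80 and 46 exon reads in sham and 74, 101 and 111 in ONC. Its groups overlapped, because sham replicate 2 at 1.02 RPKM was above ONC replicate 1 at 0.892. The log2 fold change was 0.46 with an interval from -0.11 to 1.02 (edgeR, FDR = 0.422). Npas4 has 8 exons, and its junction reads were 16, 16 and 13 in sham and 21, 36 and 37 in ONC, which did not overlap. On junction reads the log2 fold change was 0.85 (FDR = 0.493).

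Ier2 (chr8:84661331-84662852) is encoded in 1 exon and had the least relative spread of the 10 genes in the ONC group, a coefficient of variation of 1.41% in normalized reads. There were 255, 254 and 215 exon reads in sham and 317, 337 and 339 in ONC, and every ONC sample was above every sham sample. The log2 fold change was 0.24 with an interval from -0.03 to 0.51 (edgeR, FDR = 0.355). It passed the FDR in 2 of 18 alternatives, both of them limma on log2 RPKM. On that scale, and with division by all reads on genes, introns among them, the median of all genes itself lay at 0.11 to 0.13, and the exon share of the reads was larger in ONC.

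Within-sample ratios of exon reads need no scaling between samples and were added after these values had been seen. Egr1 reads per Nr4a1 read were 0.755, 1.01 and 0.681 in sham and 1.48, 1.64 and 1.88 in ONC, and per Ier2 read they were 1.44, 1.45 and 1.29 against 2.64, 2.18 and 2.55. In both cases all ONC samples lay above all sham samples (exact permutation test, two-sided p = 0.1 and 0.133 after adjustment over 4 ratios). Egr1 was chosen for these 4 ratios because it was the DEG. They restate the exon reads given above and are not an independent test.

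Among AP-1 genes, Jun, the subunit classically linked to axon injury, was a DEG with a log2 fold change of 0.88 (standard error 0.08, edgeR), while Fos was at 0.03 (standard error 0.13, FDR = 0.940). Egr1 reads per Fos read were 0.941, 0.818 and 0.855 in sham and 1.75, 1.82 and 1.76 in ONC, whereas per Jun read the groups overlapped, with 0.489, 0.541 and 0.421 against 0.575, 0.507 and 0.551 (exact permutation test, two-sided p = 0.1 and 0.2).

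Samples of a group did not deviate alike for all early genes. Arc, Egr3 and Npas4 each had their highest sham value in replicate 2 and their lowest in replicate 3, by 0.45, 0.97 and 0.39 above and 0.51, 0.91 and 0.29 below the sham mean on the log2 scale. Nr4a1 and Nr4a2 were the reverse in sham replicate 2, at 0.25 and 0.33 below the mean, and both were highest in replicate 1 of sham and of ONC. Egr1 deviated by at most 0.22, in sham replicate 3. Genes of a pool share its mice and its library, so that these common deviations are a description of 6 pools.

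**Figure D4:**
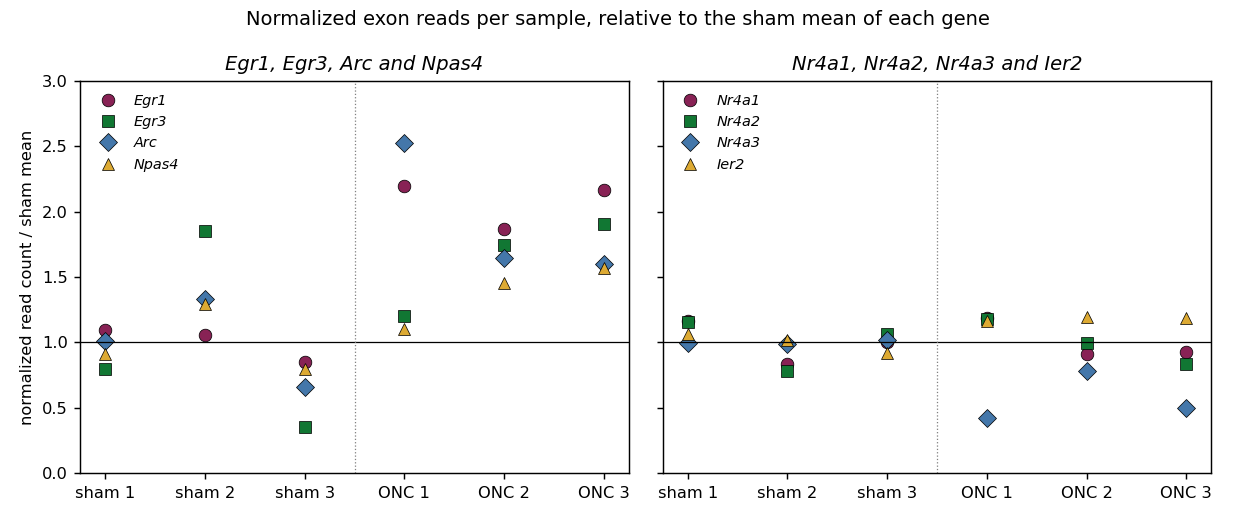
Normalized exon reads of 8 early genes in each of the 6 samples (x axis), divided by the mean of the 3 sham samples of the gene (y axis, horizontal line at 1). In the left panel Arc, Egr3 and Npas4 are highest in sham 2 and lowest in sham 3 among the sham samples, and in the right panel Nr4a1, Nr4a2 and Ier2 stay near 1 while the 3 ONC points of Nr4a3 fall below it.

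The genes whose profile over the 6 samples lay nearest to that of Egr1 were Plat, Hepacam and Riiad1. Likeness was measured as the root mean square difference of centered log2 values, which was 0.10, 0.14 and 0.15, with a median of 0.56 over all genes. Centering was over all 6 samples, so a gene near Egr1 by this measure has a similar difference between ONC and sham. The fold changes of these genes are therefore not independent of how they were picked. Plat, the tissue plasminogen activator, was higher in ONC by 1.06 log2 units (standard error 0.13, edgeR, FDR = 2.14e-05). Hepacam, an adhesion molecule of glia, had 1.0 (FDR = 0.177) and Riiad1 had 0.86 (FDR = 0.103), and neither passed.

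The factors that act on such promoters were taken as a list of 17 genes, all of them tested one by one. Of these genes for SRF, its partners, CREB, its coactivators and MEF2, 0 were DEGs with edgeR, with DESeq2 or with limma. With edgeR 2 passed the FDR, both lower in ONC. An unadjusted p under 0.05 was found for 4 of the 17, and for 2286 of all 13670 genes tested. Elk4, an SRF partner, fell by 0.58 on the log2 scale (FDR = 0.0280) and Crebbp, the CREB binding coactivator, fell by 0.47 (FDR = 0.0180), with every ONC sample below every sham sample in scaled reads. The most abundant were Mef2d at 60.9 RPKM in sham and 62.8 in ONC, Mef2c at 18.6 and 18.1, and Ep300, a coactivator related to Crebbp, at 15.4 and 15.7. The median log2 fold change of the list was 0.02, next to 0.01 for all genes. Neither Elk4 nor Crebbp passed with limma on log2 RPKM, and each missed the FDR in 2 of the 6 fits that left out a sample. These were the fits without replicate 2 of either group for Elk4 and without replicate 3 of either for Crebbp. There was 1 DEG, lower in ONC, with total gene reads and without sham replicate 1, sham replicate 3 or ONC replicate 3, and there were 2 without ONC replicate 1, where 5 of the 17 passed the FDR.

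Nab1 and Nab2 encode corepressors that bind EGR proteins, and RXR proteins are partners of NR4A receptors. Of these 5 genes, all tested, 0 were DEGs with edgeR, with DESeq2 or with limma. With edgeR 2 had an unadjusted p under 0.05, Nab1 and Rxrb, as had 2286 of all 13670 genes tested. Nab1 fell by 0.34 on the log2 scale (FDR = 0.0308), from 6.22 to 5.35 RPKM. It did not pass the FDR with the scaling of RPKM and in 4 of the 6 fits that left out a sample. With the scaling of RPKM it was Rxrb that passed the FDR, higher in ONC. Nab2 was at -0.05 (standard error 0.13). The most abundant were Rxrb, at 12.8 RPKM in sham and 16.1 in ONC, Rxra at 9.68 and 10.3, and Nab1.

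Most other early response genes did not pass the test. Of 25 genes, all tested, 1 was a DEG, Csrnp1, a nuclear protein induced by AXIN1, which rose from 0.555 to 1.61 RPKM (log2 fold change 1.42, standard error 0.31, edgeR, FDR = 0.0111). Its exon reads were 50, 20 and 44 in sham and 123, 96 and 137 in ONC, without overlap. Below the fold change threshold, Btg2, an antiproliferative gene, rose from 22.4 to 30.3 RPKM (FDR = 0.00878) and Klf6, a zinc finger factor, from 4.90 to 6.71 RPKM (FDR = 0.0716). Klf6 passed the FDR in 1 of the 6 fits that left out a sample, that without ONC replicate 1. Csrnp1 and Btg2 passed it in all 6. Arl4d at 61.2 and 70.6 RPKM, Ier3 at 28.3 and 31.0, and Btg2 were the most abundant. The list had a median of 0.08, and Fosb and Junb had log2 fold changes of -0.44 (standard error 0.31) and 0.21 (standard error 0.15) that did not pass.

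Later activity-regulated genes, the targets and effectors that follow the early factors, went both ways. Of 15 genes, 14 were tested, and Ptgs2 was below the filter. Vgf, a neuropeptide precursor, was a DEG that rose from 12.9 to 24.7 RPKM (log2 fold change 0.81, standard error 0.09, edgeR). Rgs4, a regulator of G protein signaling, was a DEG that fell from 21.5 to 14.1 RPKM, by 0.73 on the log2 scale (standard error 0.08). Scg2, a secretogranin, rose from 147 to 182 RPKM (FDR = 0.0805) and Nptx1, a neuronal pentraxin, fell from 18.6 to 15.9 RPKM (FDR = 0.0105), both by less than 1.5-fold. Scg2 missed the FDR with the replicate block, with junction reads and in 5 of the 6 fits that left out a sample, all but that without ONC replicate 1. Nptx1 missed the FDR without sham replicate 2, with limma at both pseudocounts and with junction reads. Penk did not pass the FDR in the procedure reported. It was a DEG, higher in ONC, with division by all reads on genes, without the RPKM filter and without ONC replicate 1. Its exon reads overlapped, with 158, 243 and 195 in sham and 145, 375 and 763 in ONC. Scg2, Nrn1 at 32.7 and 30.2 RPKM, and Vgf were the most abundant over both groups. The median of the list was 0.02, and Arc and Npas4 are not among its genes.

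**Figure D5:**
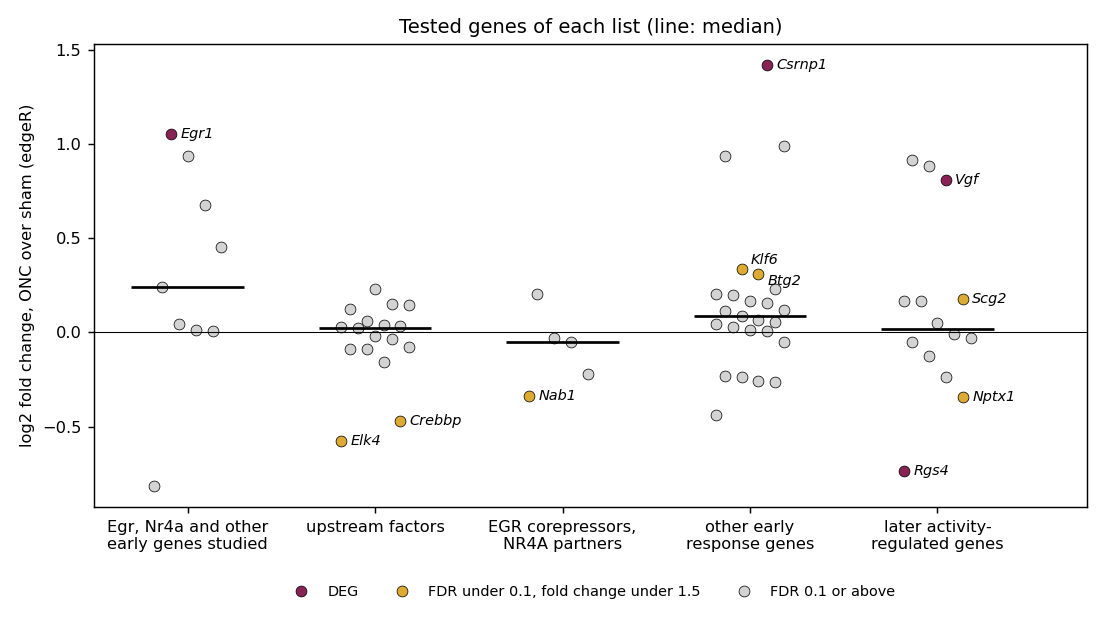
log2 fold change of ONC over sham (y axis) of each tested gene in 5 lists (x axis), with the list median as a line. Dark red points are DEGs, yellow points passed the FDR with a fold change under 1.5, and grey points did not pass. Medians lie between -0.05 and 0.08 in the 4 pathway lists and at 0.24 for the early genes studied, or 0.14 without Egr3, and 1 of the 9 is a DEG.

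Several properties of the samples moved with ONC and so with Egr1. Of the reads on genes, exons held 78.5 to 80.4% in the ONC samples and 70.9 to 76.6% in the sham samples, lowest in sham replicate 3. Egr1, Arc, Egr3, Npas4 and Ier2 also had their lowest normalized reads there. Egr4 and Nr4a3 had the highest of the sham group there, and Nr4a1 and Nr4a2 lay in the middle. Of 9 RGC markers, 5 were DEGs with lower values, Nefh, Pou4f1, Pou4f2, Rbpms and Sncg, with log2 fold changes from -0.75 to -1.39. In all 7 passed the FDR with lower values and 1, Slc17a6, with a higher value, and their summed RPKM was 217 to 230 in ONC and 298 to 307 in sham. In whole retina, fewer RGCs and less RNA per RGC cannot be told apart. Of 7 microglia and macrophage markers, 2 were DEGs with higher values, Itgam and C1qa, with sums of 18.4 to 20.7 in ONC and 9.96 to 12.7 in sham, and no marker was at 0 in any sample. No microglia marker was a DEG without sham replicate 2, ONC replicate 2 or ONC replicate 3, 1 was with DESeq2 and 4 were with division by all reads on genes. With edgeR 0 genes passed the FDR among the 6 Müller glia and astrocyte, 7 bipolar and 8 amacrine markers. An unadjusted p under 0.05 was found for 3, 1 and 0 of them, and for 2286 of all 13670 genes tested. Without ONC replicate 1 the FDR was passed by 3, 3 and 2 of these markers. Gfap and Vim, glial filament genes, passed the FDR with division by all reads on genes and with limma, Vim also with DESeq2. Of rod and cone markers 1 of 7 passed, Pde6b, of endothelial and blood markers 1 of 6, Hba-a1, and of pigment epithelium and lens markers 1 of 4, Cryaa. Each of these genes missed the FDR in at least 1 alternative. The part of these differences in the Egr1 result was not tested.

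Sham replicate 1 stood apart from the other sham samples in some genes that rose after ONC, among them Cryaa, Mmp12 and Atf3. Cryaa had 529 exon reads in sham replicate 1 and 86 and 147 in sham replicates 2 and 3. Mmp12, a macrophage metalloproteinase, had 90 exon reads in sham replicate 1 and 4 and 14 in the others. Atf3, a stress transcription factor, had 224 against 105 and 138. Egr1 in sham replicate 1, at 5.20 RPKM, was close to sham replicate 2 at 5.0. Without sham replicate 1 the log2 fold change of Egr1 was 1.12 (edgeR, FDR = 4.21e-05) and that of Arc was 0.94 (FDR = 0.206).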

How the data were processed

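Libraries were made from total RNA with TruSeq kits and sequenced as paired ends. Mapping was done by the authors in CLC Genomics Workbench. They deposited, per gene and sample, counts of total and unique reads on exons, on whole genes and on exon junctions, RPKM, and the median coverage as a signal without normalization. The divisor of RPKM holds the intron reads too. The labels name mm9, but the positions in the tables are those of GRCm38, since 99.9% of 29908 genes matched by symbol overlap their RefSeq GRCm38.p6 entry.

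Exon reads numbered 17343945 to 18349331 in sham and 20019818 to 20358008 in ONC, and all exon reads of the 10 genes were unique. Tests covered the 13670 genes whose sham or ONC mean was above 0.3 RPKM and were made with edgeR 4.0.16 (TMM, glmQLFit, glmQLFTest; R 4.3.3), with group as the only term. The standard error was the log2 fold change divided by the root of the F statistic. Intron reads (gene minus exon reads) were tested likewise in genes with at least 10 in at least 3 samples. Alternatives used DESeq2 1.42.0, limma 3.58.1 with pseudocounts of 0.1 and 1, other filters and other reads. The procedure was tested on simulated data. Figures were drawn with matplotlib 3.10.9 in Python 3.11.15.

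The genes, lists, markers and alternatives were chosen with earlier results of these data known. Named besides the 10 genes are the DEGs of each list, the 3 most abundant genes of each pathway list, Fos, Fosb, Junb and Jun, and the 3 nearest profiles of a gene past the FDR. Elk4, Crebbp, Nab2, Klf6, Nptx1, Penk, Slc17a6, Pde6b, Gfap, Vim, Ptgs2, Mmp12 and Atf3 were named after their values were seen.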

Additional observations from a re-analysis of the deposited data

How the results depend on the processing

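Of 19 alternatives, 18 kept Egr1 as a DEG. The number of early genes called higher in ONC was 2, Egr1 and Arc, with division by all reads on genes, the DESeq2 Wald test, limma on log2(RPKM + 0.1) and no filter on RPKM, and 0 with junction reads. The number past the FDR at any fold change was 2 with the first, the second and the last of these 4, 3 with limma at either pseudocount, where Ier2 was added, and 0 with junction reads. None was called lower, and none on intron reads, under any alternative. Over all genes, DEGs numbered 113 higher and 114 lower in the procedure reported, 263 and 87 with division by all reads on genes, 217 and 65 with limma on log2(RPKM + 0.1), 126 and 39 with limma on log2(RPKM + 1), 114 and 228 with total gene reads, 81 and 72 with junction reads, and 71 to 180 and 78 to 178 when a sample was left out. Genes called on introns numbered 346, and from 0 to 954 under the alternatives.

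Signs turned for Egr4 and Nr4a2 with total gene reads, at -0.12 for both (FDR = 0.903 and 0.713, edgeR). Leaving out each sample in turn gave -0.081 to 0.19 for Egr4, -0.12 to 0.13 for Nr4a1 and -0.14 to 0.12 for Nr4a2. The fit with the replicate block called 1 early gene higher, 0 lower and 1 past the FDR, and none on introns, as without it. Deviations of samples with the same number had correlations of -0.05, -0.03 and 0.003, so that the numbers do not pair the samples. Egr3, Egr4 and Nr4a3 had at most 26 exon reads in any sample and wide intervals. The p-values set the difference between groups against the spread between pools, not between single mice. Junction reads, the filter on both groups and division by all reads on genes for introns were added after the data were seen.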
